A study of Mus musculus with 13 samples.

Results

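This account follows 35 genes of the ERK pathway's transcriptional output, the immediate early genes and the feedback regulators, chosen by gene symbol from a count table of 24495 genes. All 35 were found, and all 35 were among the 14607 genes with enough counts to be tested. They were read in bulk RNA-seq libraries of primary mouse embryonic fibroblasts (MEFs; embryonic day 12.5, strain background V6.5 129XBI/6). The fibroblasts were Tet2-/- and carried OKSM, a doxycycline-driven set of reprogramming factors, together with rtTA, its activator, so every group shared the loss of Tet2 and the transgenes. Untreated MEFs (n = 3) were kept in serum-containing fibroblast medium; the labels leave unclear whether they carried the empty vector. The other cells were transduced with the pMXs retrovirus, either empty (pMXs, n = 3), with wild-type Tet2 (Tet2-WT, n = 3) or with a mutant named Tet2-E and described as stalling (n = 4). These were collected on day 5 of reprogramming, on feeder MEFs treated with Mito-C, in medium with LIF at 1000 U/mL and doxycycline at 2 µg/mL. The medium also held PD0325901 at 1 µM, which inhibits MEK, the kinase that activates ERK, and CHIR99021 at 3 µM, which inhibits GSK3. All cells were kept at 5% oxygen. No sort or removal of feeders is named, so a day 5 library is read as the whole culture.

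Growth factor receptors signal through Ras, Raf and MEK to ERK. Active ERK phosphorylates ternary complex factors bound with SRF at CArG boxes, and genes such as Fos and Egr1 are then transcribed within minutes without new protein synthesis. Their products, chiefly AP-1 and Egr transcription factors, drive a later wave. Brakes on the pathway are also induced. Dusp phosphatases remove phosphate from ERK and other MAP kinases, Sprouty and Spred proteins restrain signalling upstream of ERK, and Errfi1 inhibits the EGF receptor. Stress kinases and other pathways also induce several of these genes. In mouse embryonic stem cells, blocking MEK together with GSK3 favours the naive pluripotent state.

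Total counts ran from 21985590 to 25991708 in untreated, 14310277 to 25326826 in pMXs, 20261396 to 25720579 in Tet2-WT and 14052646 to 26265382 in Tet2-E libraries. Levels below are counts-per-million (CPM) after TMM scaling. Tet2 read 37.8 to 48.3 CPM in untreated, 39.1 to 58.8 in pMXs, 1176 to 1243 in Tet2-WT and 581 to 1403 in Tet2-E libraries, where the lowest was replicate 100. The summed level of 12 fibroblast markers was 38698 to 41200 CPM in untreated, 15663 to 17704 in pMXs, 9639 to 11527 in Tet2-WT and 13248 to 14520 in Tet2-E libraries. The fibroblast label of the untreated cells thus matched their markers. A list of 10 epithelial markers summed to 20.9 to 36.3 CPM in untreated and 457 to 606 in pMXs libraries. In bulk RNA, fewer cells of a type and less RNA per cell cannot be told apart. The labels do not say that replicates came from separate cultures, so the p-values may reflect technical spread alone.

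The comparison of pMXs day 5 cultures with untreated MEFs asks how these genes stood after transduction, OKSM induction and 5 days in inhibitor medium. Of the 35 genes, 19 fell, 8 rose and 8 did not pass (edgeR quasi-likelihood test, Benjamini-Hochberg adjusted p under 0.05). These calls covered 77.1% of the 35, where the same test called 70.1% of all genes tested, 35% higher and 35% lower. The libraries of both groups did not overlap for 24 of the 35, against 72% of all genes. The median log2 fold change of the 35 was -0.50, against -0.00133 over all genes. The media, inhibitors, feeders, OKSM induction, retrovirus and time in culture changed together between these groups, and their parts cannot be told apart.

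**Figure D1:**
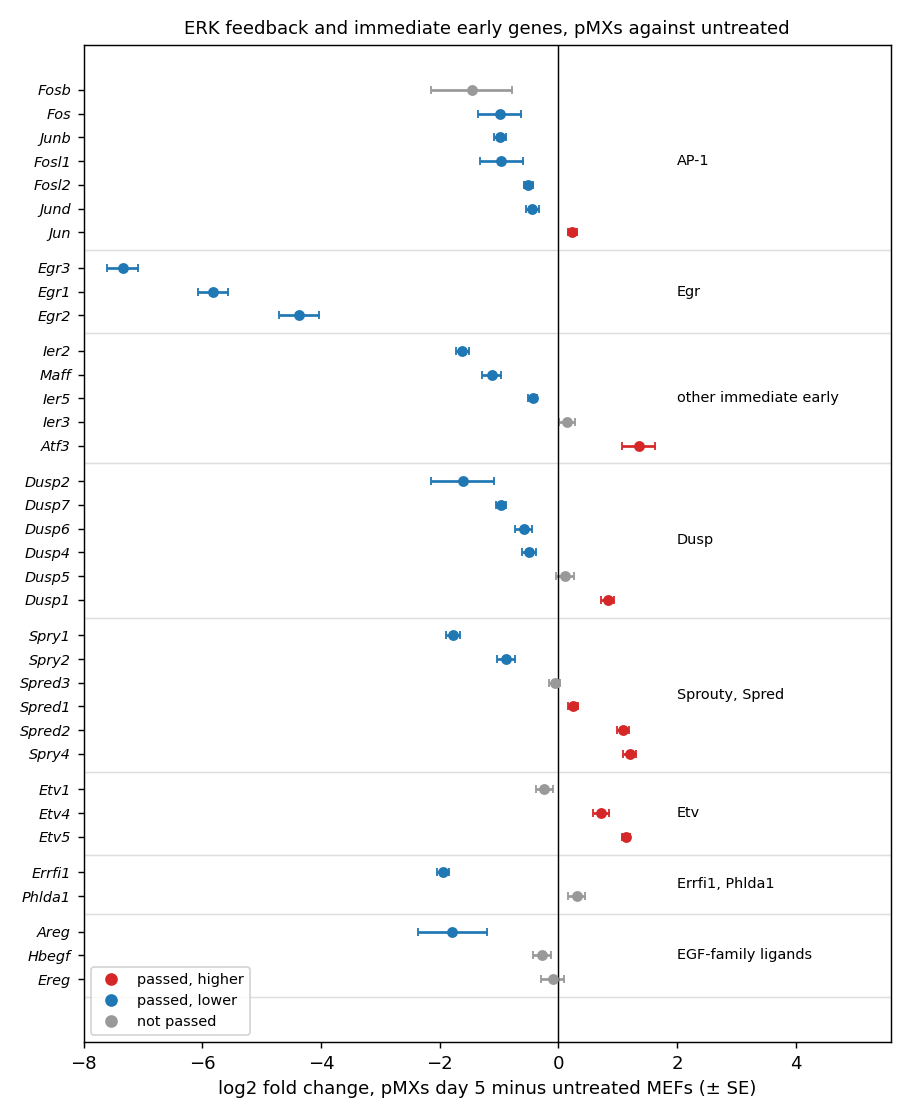
Log2 fold change of each of the 35 genes in pMXs day 5 libraries relative to untreated MEFs (x axis), grouped by role, with standard errors as bars; colour marks genes that passed the test. The 3 Egr genes lie farthest to the left, from -7.34 to -4.38, while Atf3, Spry4, Etv5 and Spred2 lie farthest to the right.

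The Egr genes encode zinc finger transcription factors of the immediate early response, and all 3 fell. Values are given in the order of replicates 1, 2 and 100 for untreated and 2, 100 and 250 for pMXs. Egr1 was at 342, 304 and 479 CPM before and 6.91, 4.44 and 9.17 CPM at day 5 with empty pMXs. Every day 5 library was below every untreated library. The log2 fold change of Egr1 was -5.82 ± 0.26 (SE; adjusted p = 2.61e-10), 56.6-fold lower. Egr3 read 22.6, 19.3 and 21.3 CPM in untreated and 0.19, 0.08 and 0.14 CPM in pMXs libraries. The pMXs values of Egr3 rest on 2 to 3 counts per library, 7 in all, so its ratio of untreated to pMXs is given as 171 with a 95% counting interval of 82.8 to 426 (log2 fold change -7.34 ± 0.26, adjusted p = 4.68e-12). Egr2 read 7.83, 6.55 and 9.35 CPM in untreated and 0.19, 0.31 and 0.68 CPM in pMXs libraries, a ratio of 21.3 (95% counting interval 13.8 to 34.7; adjusted p = 1.91e-08). Such intervals cover counting error only. Per kilobase of exon, Egr1 went from 83.6 CPM in untreated, above Fos at 78.4, to 1.53 in pMXs, below Fos at 39.7; the untreated values of Egr1 and Fos overlapped within their spread.

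The promoter of Egr2 shows the element through which SRF and ternary complex factors act. It is printed with those of 4 other members to set their starts side by side: the 150 bases before the RefSeq start, 5′ to 3′ on the gene's strand, build GRCm38.p6 (the counts were made on mm9). Capitals mark a CArG box in Egr2 and Dusp5 and the cyclic AMP response element TGACGTCA in Maff and Dusp1; no searched motif lies in the Atf3 stretch. Egr2 (chr10:67537719-67537868, plus strand), Maff (chr15:79347370-79347519, plus) and Atf3 (chr1:191183334-191183483, minus) were taken by size of change, with some larger changes passed over. Egr1 and Egr3 fell more than Egr2, and Ier2 fell more than Maff, and their promoters are not printed. Dusp5 (chr19:53528995-53529144, plus) and Dusp1 (chr17:26508473-26508622, minus) were added after their motifs had been seen.
Egr2: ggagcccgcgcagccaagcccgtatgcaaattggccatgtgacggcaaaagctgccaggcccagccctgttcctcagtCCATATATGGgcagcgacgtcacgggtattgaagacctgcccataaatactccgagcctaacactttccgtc
Dusp5: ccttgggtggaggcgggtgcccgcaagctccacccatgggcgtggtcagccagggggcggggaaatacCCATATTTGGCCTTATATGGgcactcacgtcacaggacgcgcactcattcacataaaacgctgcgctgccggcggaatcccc
Maff: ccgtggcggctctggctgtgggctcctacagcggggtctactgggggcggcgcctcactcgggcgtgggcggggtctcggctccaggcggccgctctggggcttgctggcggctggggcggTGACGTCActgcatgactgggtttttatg
Dusp1: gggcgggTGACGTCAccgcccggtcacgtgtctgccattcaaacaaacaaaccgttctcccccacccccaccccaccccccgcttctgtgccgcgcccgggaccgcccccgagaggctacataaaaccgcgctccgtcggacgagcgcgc
Atf3: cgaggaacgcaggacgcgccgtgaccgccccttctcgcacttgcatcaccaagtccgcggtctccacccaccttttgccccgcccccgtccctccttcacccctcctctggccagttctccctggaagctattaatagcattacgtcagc

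The printed CArG box of Egr2 begins 72 bases before its start, 1 of 5 listed for this gene. Another listed start of Egr2 has a separate CArG box and holds the CCGGAA matches of the gene. Dusp5 holds a run of 2 adjoining CArG boxes at 82 and 72 bases. Among 25 members with an entry, searched on both strands over 250 bases, the CArG box was in 2, against 1.62% of all 27025 genes with an entry. Members without an entry were not searched. TGACGTCA was in 4 (Areg, Dusp1, Errfi1 and Maff), against 1.77%. The AP-1 motif TGANTCA was in none, against 7.82%, and the ETS motif CCGGAA was in 1, against 13.6%. A gene counts where any of its listed starts holds the motif. The members that share a motif did not share a direction: Egr2 fell, while Dusp5 read 17.2, 14.4 and 10.8 CPM in untreated and 16.2, 14.9 and 14.8 CPM in pMXs libraries and did not pass (log2 fold change 0.11 ± 0.15, adjusted p = 0.527). Dusp1 rose, while Maff, Errfi1 and Areg fell. A match describes letters in this window and is not evidence of binding.

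AP-1 is a dimer of Fos and Jun family proteins. Of the 7 members, 5 fell, Jun rose and Fosb did not pass. Junb, a Jun family member, read 245, 213 and 274 CPM in untreated and 111, 132 and 127 CPM in pMXs libraries (log2 fold change -0.99 ± 0.10, adjusted p = 3.8e-07). Fosl2 fell by 0.51 ± 0.08 on the log2 scale and Jund by 0.44 ± 0.11. All day 5 libraries were below all untreated libraries for Junb, Fosl2 and Jund. Jun read 155, 153 and 172 CPM in untreated and 177, 198 and 190 CPM in pMXs libraries, a rise of 0.24 ± 0.08 (adjusted p = 0.0134). Its groups did not overlap, but the call was lost without untreated replicate 2 (adjusted p = 0.0576) or pMXs replicate 100 (0.0616).

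Fos read 111, 105 and 279 CPM in untreated and 76.0, 61.8 and 113 CPM in pMXs libraries. Untreated replicate 100 stood above the rest, and the groups overlapped. The log2 fold change of Fos was -0.99 ± 0.36 (adjusted p = 0.0279), and without untreated replicate 100 it was -0.38 (adjusted p = 0.218). The call on Fos was also lost without pMXs replicate 2 (adjusted p = 0.0695) or 100 (0.0942). Fosb read 22.0, 15.5 and 73.4 CPM in untreated and 10.9, 6.70 and 23.8 CPM in pMXs libraries, again highest in untreated replicate 100 (log2 fold change -1.46 ± 0.69, adjusted p = 0.0768). Fosb passed without untreated replicate 2 (adjusted p = 0.0328) or pMXs replicate 250 (0.03). Fosl1 went from 1.87 ± 0.88 to 0.95 ± 0.43 CPM, a call (adjusted p = 0.0266) lost without untreated replicate 1 (0.172) or 2 (0.063) or pMXs replicate 100 (0.0554) or 250 (0.108). Per kilobase of exon the untreated order was Jund (162 CPM), Junb (135), Fos (78.4), Jun (50.1), Fosl2 (38.4), Fosb (9.78) and Fosl1 (1.00). In pMXs libraries Jun (59.0) stood above Fos (39.7), after Jund (119.6) and Junb (68.1). Neighbours Jund and Junb in untreated, Fos with either neighbour there, and Junb and Jun in pMXs did not differ beyond the spread between libraries.

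Of 5 other immediate early genes, 3 fell, Atf3 rose and Ier3 did not pass. Ier2, a short-lived transcriptional regulator, read 114, 99.0 and 137 CPM in untreated and 34.6, 38.8 and 40.7 CPM in pMXs libraries (log2 fold change -1.62 ± 0.11, adjusted p = 5.05e-09). Maff, a small Maf protein, fell by 1.12 ± 0.15 and Ier5 by 0.43 ± 0.07 on the log2 scale. Atf3, a stress-induced bZIP factor, read 3.62, 3.93 and 6.91 CPM in untreated and 12.4, 10.1 and 14.7 CPM in pMXs libraries. It rose by 1.36 ± 0.28 (adjusted p = 0.000611), with every day 5 library above every untreated library. Among 8 other genes of the integrated stress response, which also induces Atf3, 2 rose and 6 fell in this comparison. Over all genes, 35% rose and 35% fell. The log2 fold changes of the 8 ran from -1.65 (Ddit3) to 0.69. The part of stress in the Atf3 value was not tested.

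**Figure D2:**
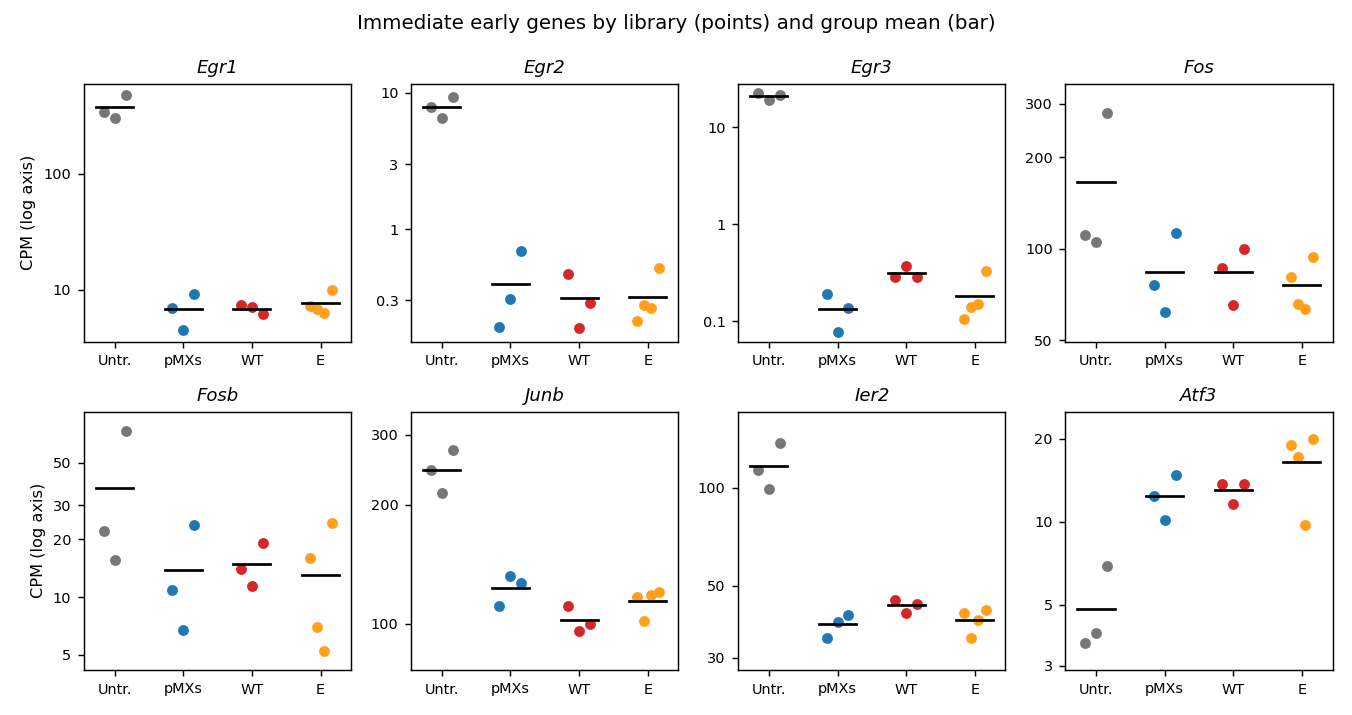
CPM of 8 immediate early genes in each library (points; log axis) with the group mean as a bar, for untreated (Untr.), pMXs, Tet2-WT (WT) and Tet2-E (E). Egr1, Egr2 and Egr3 separate untreated from day 5 libraries without overlap, Atf3 runs the other way, and Fos and Fosb have 1 high untreated library.

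The Dusp genes encode dual-specificity phosphatases that inactivate MAP kinases, some in the nucleus (Dusp1, Dusp2, Dusp4, Dusp5) and some in the cytoplasm (Dusp6, Dusp7). Of the 6, 4 fell, Dusp1 rose and Dusp5 did not pass. Dusp6, which is selective for ERK, read 69.4, 69.4 and 78.0 CPM in untreated and 45.0, 58.6 and 40.4 CPM in pMXs libraries. Its fall was modest, 0.58 ± 0.15 on the log2 scale (adjusted p = 0.00241). Dusp7 fell by 0.97 ± 0.09, from 61.0 ± 6.24 to 31.1 ± 3.52 CPM (SD, n = 3 each). Dusp4 fell by 0.49 ± 0.12. Dusp1, which also acts on p38 and JNK, read 119, 107 and 108 CPM in untreated and 180, 198 and 219 CPM in pMXs libraries. Its rise of 0.83 ± 0.11 (adjusted p = 5.43e-06) went against the other Dusp genes called. Dusp2 was scarce, with 5 to 10 counts in each pMXs library, and its call was lost without untreated replicate 1 (adjusted p = 0.163) or pMXs replicate 100 (0.053).

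Sprouty and Spred proteins are membrane-associated inhibitors of Ras and Raf activation by receptor tyrosine kinases. Within this family, Spry1 and Spry2 fell while Spry4, Spred1 and Spred2 rose, and Spred3 did not pass. Spry1 read 67.8, 67.4 and 74.0 CPM in untreated and 17.9, 23.8 and 19.4 CPM in pMXs libraries (log2 fold change -1.77 ± 0.12, adjusted p = 2.81e-09). Spry2 read 72.1, 67.9 and 90.6 CPM in untreated and 37.9, 44.3 and 42.9 CPM in pMXs libraries (-0.88 ± 0.15, adjusted p = 9.48e-05). Both were lower in every day 5 library than in any untreated library. Spry4 read 27.3, 29.9 and 30.04 CPM in untreated and 66.7, 72.8 and 60.6 CPM in pMXs libraries (1.20 ± 0.11, adjusted p = 1.11e-07). Spred2 rose by 1.09 ± 0.10, from 32.8 ± 3.07 to 69.6 ± 2.88 CPM. Spred1 rose by 0.25 ± 0.09, a call lost without untreated replicate 1 (adjusted p = 0.0939) or pMXs replicate 100 (0.0509) or 250 (0.0544). Per kilobase of exon the Sprouty order changed from Spry2 (36.8 CPM), Spry1 (24.0) and Spry4 (6.11) in untreated to Spry2 (19.98), Spry4 (14.03) and Spry1 (6.997) in pMXs libraries. No neighbours in either order overlapped within 1 SD.

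Etv1, Etv4 and Etv5 are ETS transcription factors of the PEA3 group, commonly read as outputs of FGF and ERK signalling. Etv5 read 49.5, 52.2 and 45.8 CPM in untreated and 109, 110 and 104 CPM in pMXs libraries, a rise of 1.14 ± 0.07 (adjusted p = 7.13e-10). Etv4 rose by 0.72 ± 0.14, from 23.3 ± 4.31 to 38.3 ± 0.39 CPM. Etv1 did not pass (-0.23 ± 0.14, adjusted p = 0.14). Errfi1, which binds and inhibits the EGF receptor, read 65.6, 73.6 and 90.4 CPM in untreated and 19.3, 20.7 and 19.4 CPM in pMXs libraries (-1.94 ± 0.11, adjusted p = 3.75e-10). Phlda1 did not pass (0.31 ± 0.14, adjusted p = 0.0632), but did without untreated replicate 1 (adjusted p = 0.0063), pMXs replicate 250 (0.0449) or Tet2-WT replicate 250 (0.0324).

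Ereg, Areg and Hbegf encode EGF-family ligands that are shed from the cell surface to activate EGF receptors. Ereg read 43.5, 42.5 and 46.7 CPM in untreated and 46.9, 36.7 and 41.4 CPM in pMXs libraries, and its groups overlapped (log2 fold change -0.09, 95% interval -0.47 to 0.29). Hbegf did not pass (-0.27 ± 0.15, adjusted p = 0.122). Areg was scarce, with 2 to 4 counts in each pMXs library, and the ratio of untreated to pMXs was 3.6 (95% counting interval 1.77 to 8.05; adjusted p = 0.0121, and 0.0913 without pMXs replicate 100).

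Across all 10 day 5 libraries and 3 untreated libraries, 5 of the 35 genes were higher in every day 5 library (Atf3, Dusp1, Spry4, Spred2 and Etv5) and 14 were lower in every one. Over all genes tested, 31.1% were above and 30.3% below in this sense. The 14 were Fosl2, Junb, Jund, Egr1, Egr2, Egr3, Ier2, Ier5, Maff, Dusp6, Dusp7, Spry1, Spry2 and Errfi1.

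**Figure D3:**
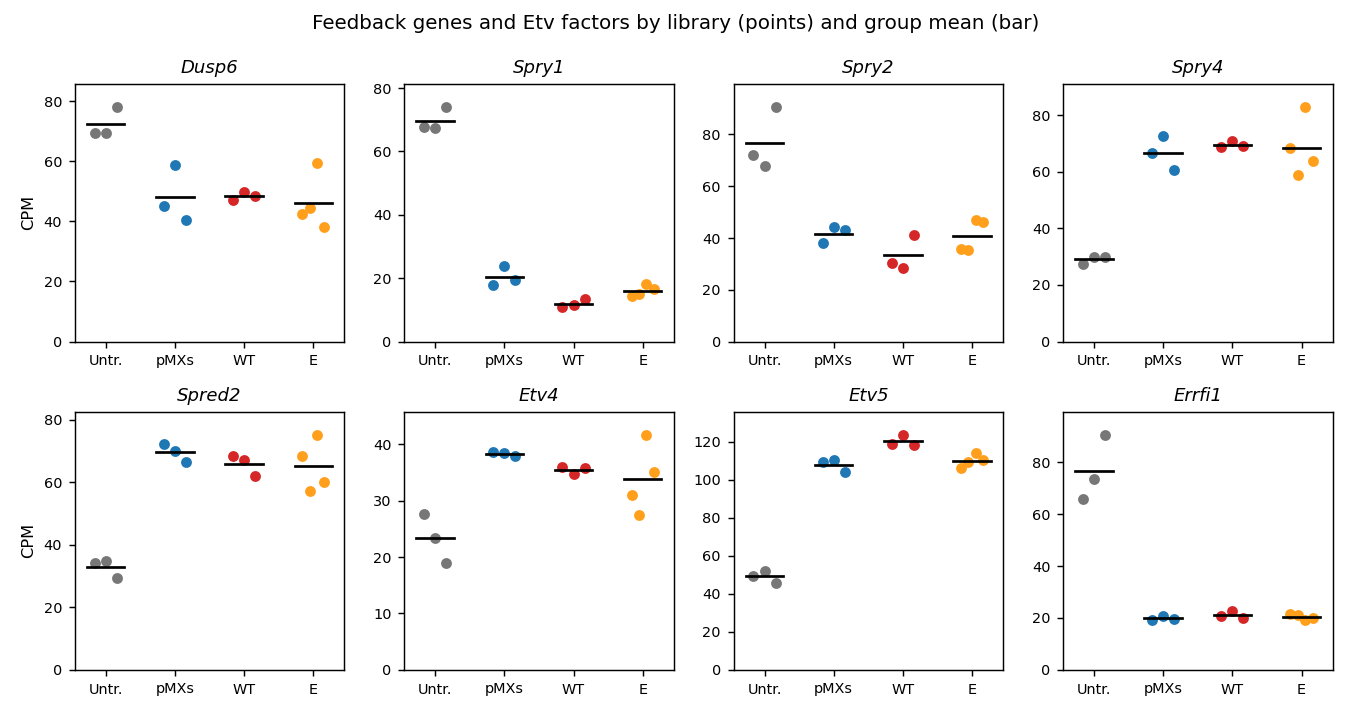
CPM of feedback genes in each library (points; linear axis from 0) with the group mean as a bar, in the same 4 groups. Spry1 and Spry2 are lower, and Spry4 and Etv5 higher, in every day 5 library than in any untreated library.

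Other genes of the pathway also moved in both directions between pMXs and untreated libraries, as did all genes tested, of which 35% rose and 35% fell. The called share was 66.7% of the Ras to ERK cascade and 79.2% of the other immediate early genes, against 70.1% of all genes. Over the lists below it ran from 57.1% of the other EGF-family ligands to 85.7% of the other Dusp genes. Of 24 other immediate early genes, 7 rose and 12 fell; Arc, a neuronal cytoskeletal protein, fell by 4.44 and the kinase gene Sgk1 by 2.69, while Bhlhe40 rose by 2.39. Of 24 genes of the Ras to ERK cascade, 6 rose and 10 fell. Of 11 EGF, FGF and related receptors, 3 rose and 6 fell: the platelet-derived growth factor receptor genes Pdgfra and Pdgfrb fell by 5.47 and 2.11, while Kit rose by 3.54. Egfr, the receptor that Ereg, Areg and Hbegf activate, fell by 0.95 and is named for that role, outside the rule on size. Of 7 other Dusp genes, 4 rose and 2 fell, with Dusp14 up by 3.48 and Dusp10 down, at -2.09. Of 8 genes for SRF cofactors and ETS factors (Elk1, Elk3, Elk4, Mkl1, Mkl2, Myocd, Ets1 and Ets2), 2 rose and 3 fell. Of 7 other EGF-family ligands, 4 rose and none fell, and Nrg1 went from 17.1 ± 2.43 to 37.1 ± 2.61 CPM. Pdgfra and Pdgfrb also belong to the fibroblast markers, of which 12 of 12 fell; the part of cell composition in these values was not tested.

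Tet2-WT against pMXs compares wild-type Tet2 with the empty vector in day 5 cultures that shared medium, feeders and induction. Their replicate numbers were not balanced: 2, 100 and 250 for pMXs, and 1, 2 and 250 for Tet2-WT. Day 5 libraries grouped by number, 1 and 2 against 100 and 250, so this grouping partly coincides with the vector. Of the 35 genes, Ereg rose, Spry1 and Ier5 fell and 32 did not pass. That is 8.57% of these genes, against 12.5% of all genes tested, 6.01% higher and 6.52% lower. The groups did not overlap for 12 of the 35, against 34.6% of all genes. With the replicate number as a block, 5 of the 35 passed, against 13% of all genes. The other 2 were Junb (-0.25, adjusted p = 0.0358) and Spred3 (-0.30, adjusted p = 0.0432), both lower. Junb and Dusp4 also passed without untreated replicate 100 (adjusted p = 0.049 and 0.03), and Spry2 without Tet2-WT replicate 250 (-0.51, adjusted p = 0.0373). The median log2 fold change was 0.04, against -0.00367 over all genes.

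Tet2-WT values are in the order of replicates 1, 2 and 250. Spry1 read 10.9, 11.4 and 13.4 CPM with Tet2-WT, against 17.9, 23.8 and 19.4 CPM with the empty vector. The groups did not overlap, and the log2 fold change was -0.78 ± 0.12 (adjusted p = 0.000553). Spry1 was thus lower in Tet2-WT than in pMXs cultures, which were themselves below untreated MEFs. Ier5, an immediate early gene linked to the heat shock response, read 47.9, 48.6 and 50.3 CPM in Tet2-WT and 63.7, 66.6 and 67.0 CPM in pMXs libraries (-0.43 ± 0.07, adjusted p = 0.00127). None of 8 heat shock genes passed in edgeR (4 had an unadjusted p under 0.05). Of 8 integrated stress response genes, 3 fell, with Trib3 at -1.13 and Chac1 at -0.92.

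Ereg read 92.8, 91.8 and 78.3 CPM in Tet2-WT and 46.9, 36.7 and 41.4 CPM in pMXs libraries, a rise of 1.08 ± 0.19 (adjusted p = 0.00233) without overlap. Epgn, a related ligand outside the 35 genes, lies beside Ereg on chromosome 5, where the RefSeq order of protein-coding genes is Mthfd2l, Epgn, Ereg, Areg, Btc and Parm1. Epgn read 16.6, 12.0 and 5.30 CPM in Tet2-WT and 0.697, 0.728 and 0.342 CPM in pMXs libraries, a ratio of 18.4 (95% counting interval 13.1 to 26.6; adjusted p = 2.48e-05). Areg and Btc, on the other side of Ereg, did not pass (Areg 0.50 ± 0.67, adjusted p = 0.706; Btc 0.19 ± 0.28, adjusted p = 0.736). Hbegf did not pass either (-0.13, 95% interval -0.43 to 0.17). With a term for the grouping by replicate number, the log2 fold change of Epgn was 3.715, against 4.194 without it.

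**Figure D4:**
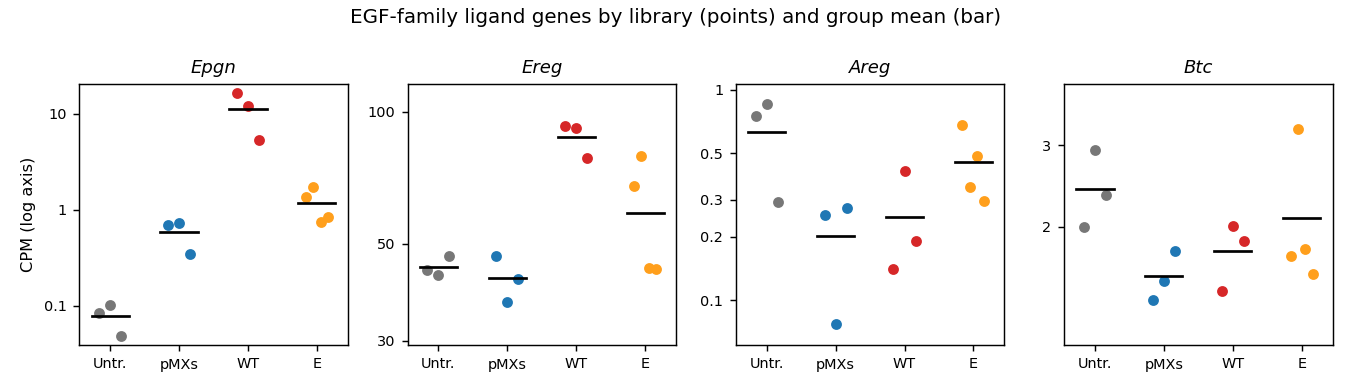
CPM of EGF-family ligand genes in each library (points; log axis) with the group mean as a bar, in the same 4 groups. Ereg and Epgn are higher in all 3 Tet2-WT libraries than in any pMXs library, and the Areg values are all under 1 CPM.

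Marker lists moved in the same comparison. Of 12 fibroblast markers, 7 fell and 2 rose, where 6.52% of all genes fell and 6.01% rose. Of 10 epithelial markers 2 rose, and 2 of 7 pluripotent and 2 of 6 endothelial markers fell. A list of 9 macrophage markers summed to 213 to 309 CPM in Tet2-WT and 81.0 to 94.6 CPM in pMXs libraries, most of it from Laptm5. That sum was 5.89 to 7.01 CPM in untreated and 93.5 to 127 CPM in Tet2-E libraries. Of 6 macrophage markers tested, 4 rose and none fell (median log2 fold change 1.76): Itgam by 3.18, Csf1r by 2.25, Cd68 by 1.72 and Laptm5 by 1.65. Lyz2, also on the list, went the other way without passing: its Tet2-WT libraries were all below its pMXs libraries. The lowest log2 fold change on the list was -1.38. The macrophage genes Ptprc, Aif1, Adgre1 and Cd53 were at 0 in all pMXs libraries and at or near 0 in Tet2-WT. A list of 8 keratinocyte markers summed to 25.1 to 58.1 CPM in Tet2-WT and 24.0 to 33.7 CPM in pMXs libraries, with 3 of 8 called higher. The part of cell composition in the Spry1, Ier5 and Ereg values was not tested.

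Egr1, Egr2, Egr3 and Dusp6 did not pass between Tet2-WT and pMXs. Egr1 read 7.36, 7.05 and 6.11 CPM in Tet2-WT libraries, within the pMXs range of 4.44 to 9.17 (log2 fold change 0.05, 95% interval -0.47 to 0.58). Dusp6 differed by 0.01 (95% interval -0.28 to 0.30). Egr3 totalled 22 counts in Tet2-WT and 7 in pMXs libraries, a ratio of 2.57 (95% counting interval 1.06 to 7.12), and did not pass (adjusted p = 0.109).

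Among the other pathway lists, 1 of 24 cascade genes rose (Sos2, 0.41) and 3 of 11 receptors fell. The largest changes among those 3 were in Pdgfrb and Fgfr2, both -0.93, while the lowest value over all 11 was -1.28. Of 24 other immediate early genes, 2 rose. They were Ptgs2, the inducible prostaglandin synthase, at 1.04 ± 0.18 (adjusted p = 0.00201), and Bhlhe40 at 0.37. Of 9 other ERK output genes, Ccnd1 (0.41) and Epha2 (0.72) rose and Epha4 (-0.55) and Il1rl1 (-2.27) fell. Dusp14 rose by 0.50. The called share was 4.17% of the cascade, 8.33% of the other immediate early genes, 27.3% of the receptors and 44.4% of the other ERK output genes. Over all genes tested it was 12.5%.

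Tet2-E against pMXs gave no call among the 35 genes in edgeR, and none in DESeq2; 6 had an unadjusted p under 0.05 in edgeR. Over all genes, 0.0479% were called by adjusted p, which is not the background for those 6. The share of all genes with an unadjusted p under 0.05 was not counted. The groups did not overlap for 5 of the 35, against 10.2% of all genes. The 6 were Areg (1.29 ± 0.58), Ereg (0.49 ± 0.18), Dusp4 (0.28 ± 0.11), Ier5 (-0.18 ± 0.07), Spry1 (-0.34 ± 0.11) and Etv1 (-0.38 ± 0.13), and their lowest adjusted p was 0.316. Ereg read 67.7, 79.2, 44.0 and 43.7 CPM in Tet2-E replicates 1, 2, 100 and 250. Replicates 1 and 2 were above all pMXs libraries, and replicates 100 and 250 were within the pMXs range of 36.7 to 46.9. Spry1 read 14.5, 14.9, 18.3 and 16.7 CPM in Tet2-E libraries, of which replicate 100 overlapped pMXs. The comparison shares its pMXs libraries with the one above, so the values stand side by side and their likeness was not tested.

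**Figure D5:**
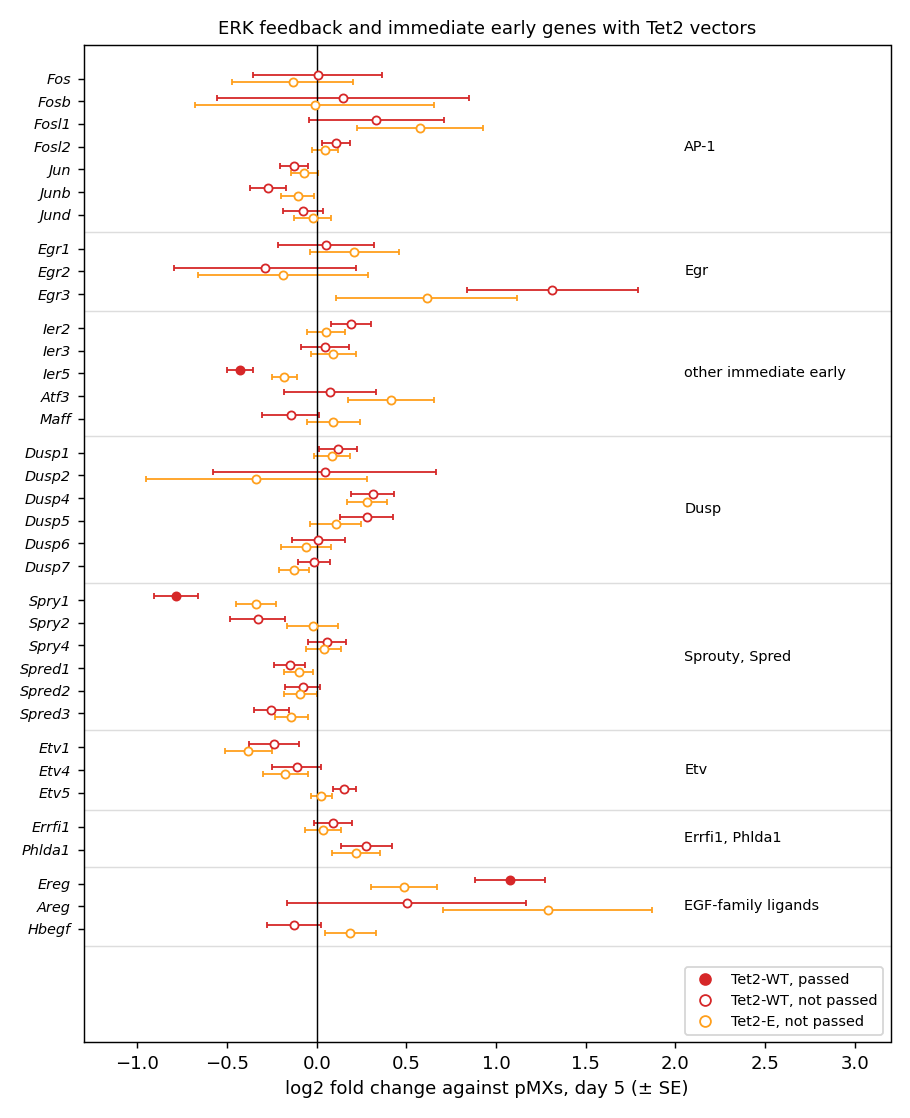
Log2 fold change of each of the 35 genes against pMXs (x axis) in Tet2-WT and Tet2-E day 5 libraries, with standard errors as bars; filled points passed the test. Spry1, Ier5 and Ereg in Tet2-WT are the 3 filled points.

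Tet2-WT against Tet2-E tests the difference between both Tet2 forms directly. Spry1 was lower in Tet2-WT (log2 fold change -0.45 ± 0.11, adjusted p = 0.0351), with all 3 Tet2-WT libraries below all 4 Tet2-E libraries, and the other 34 genes did not pass. That is 2.86%, against 4.62% of all genes, 2.19% lower. The groups did not overlap for 4 of the 35, against 15% of all genes. The Spry1 call was lost without Tet2-WT replicate 1 (adjusted p = 0.188), Tet2-WT replicate 2 (0.166), Tet2-E replicate 100 (0.115), Tet2-E replicate 250 (0.088) or untreated replicate 2 (0.0515). Ereg (0.59 ± 0.18, adjusted p = 0.0823) and Ier5 (-0.25 ± 0.07, adjusted p = 0.0565) did not pass. Ereg passed without Tet2-E replicate 2 (adjusted p = 0.0116), and Ier5 without untreated replicate 1 (0.0373) or 100 (0.0211). With the replicate number as a block, 3 of the 35 passed, against 6.61% of all genes. They were Spry1, Ereg (0.56, adjusted p = 0.0261) and Hbegf (-0.36, adjusted p = 0.0328). Epgn was higher in Tet2-WT by 3.35 ± 0.35 (adjusted p = 7.28e-05).

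Within groups, single libraries were highest for many genes of the chosen subsets below. Of 10 immediate early genes (Egr1, Egr2, Egr3, Fos, Fosb, Jun, Junb, Ier2, Atf3 and Dusp1), untreated replicate 100 was the highest library of its group for 8, pMXs replicate 250 for 7 and Tet2-E replicate 250 for 9. This subset left out Fosl1, Fosl2, Jund, Ier3, Ier5 and Maff, each of which was lowest in untreated replicate 100. In pMXs replicate 250, Fosl1 and Maff were lowest and Fosl2, Jund, Ier3 and Ier5 highest. The pattern thus did not hold for all immediate early members. Of 11 feedback genes (Dusp4, Dusp5, Dusp6, Spry1, Spry2, Spry4, Spred1, Spred2, Etv1, Etv4 and Etv5), Tet2-E replicate 100 was the highest for 7 and Tet2-E replicate 250 for none. That subset left out Dusp2, Dusp7, Spred3 and Errfi1, and Dusp1 was counted with the immediate early genes. Dusp7 and Dusp1 were highest in Tet2-E replicate 250, and Dusp2, Spred3 and Errfi1 in Tet2-E replicate 1. Dusp6, Spry1, Spry2 and Spry4 were highest in replicate 100 in each of the 3 groups that had it. Genes of a library share its RNA, so these counts describe libraries and are not tests. The share of all genes highest in each library was not counted.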

How the data were processed

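Gene-level read counts were deposited by the authors for 13 libraries, and the submitters' processing notes name mm9, STAR 2.6.1a, featureCounts 1.6.2, DESeq2 1.26.0, R 3.6.2, bedtools 2.27.1 and SAMtools 1.7. Whether counting used strand is not given in the sources used here, so overlapping antisense transcripts cannot be told apart. From the counts, R 4.3.3 and edgeR 4.0.16 kept 14607 of 24495 genes (filterByExpr, count minimum 10, total minimum 15), scaled by TMM and fitted 1 robust quasi-likelihood model with a mean per group. Adjusted p-values are Benjamini-Hochberg over all genes tested, with a threshold of 0.05. The standard error is the absolute log2 fold change divided by the square root of F, and 95% intervals use 1.96 of it. Levels per kilobase divide by the GENCODE M21 exon union. Alternatives used DESeq2 1.42.0, other scaling and filters, a replicate block, and left-out libraries.

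On simulated counts for Tet2-WT against pMXs (14034 genes), 81% of 100 genes changed by 1.0 on the log2 scale were recovered, and 51% of 100 changed by 0.5. Of the genes left unchanged, 13 were also called. The simulated counts held no grouping of replicate numbers. Pairs of replicates differed beyond counting error (chi-square per degree of freedom 6.63 to 43.2), so none was a repeated library. Same-numbered day 5 libraries deviated together (r = 0.121 to 0.339 over 8 pairs), which was not so for pairs with untreated libraries (-0.0425 to 0.171 over 7 pairs). Day 5 libraries with the other number of the same set (1 with 2, 100 with 250) correlated as much (0.0784 to 0.363, 8 pairs), and those of opposite sets did not (-0.42 to -0.0497, 17 pairs). These values show a grouping of 1 and 2 against 100 and 250 and do not single out pairing by number, and the labels give the numbers no meaning. The replicate block absorbs this grouping, and a term for it alone was also fitted. The labels state that libraries were prepared in 2 sets without saying which.

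The members and gene lists were chosen with earlier results of these data known. The text names all 35 members where a result turns on them, and of each other list at most 2 genes that rose and 2 that fell, by size of change, among genes reaching 1 CPM in either group. Egfr, Epgn, Btc and the marker genes are named outside that rule. Promoters are from RefSeq (GRCm38.p6), where 25 of 35 members had an entry.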

Additional observations from a re-analysis of the deposited data

Results flagged for a closer look

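Jund in Tet2-E replicate 2 read 164.8 CPM, while the other 3 Tet2-E libraries read 204.0 to 211.1 CPM. The gap to its nearest neighbour was 0.847 of the group's range, above Dixon's 95% critical value for 4 samples. Chance gives such a gap in about 1 in 20 groups, and 35 were examined.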

How the results depend on the processing

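Of the 27 genes called between pMXs and untreated, 17 passed under all 22 alternatives; Fos, Fosl1, Jun, Jund, Atf3, Dusp2, Dusp4, Dusp6, Spred1 and Areg did not. Some of the 22, fitted within a set of replicate numbers, left 1 library in a group. Leaving out 1 library at a time gave 21 to 28 changed (6 to 9 higher, 15 to 19 lower), against 65.5% to 70.8% of all genes. The 3 Tet2-WT calls against pMXs passed under all 22, and leaving out libraries gave 3 to 5 changed (1 to 2 higher, 2 to 3 lower). Over all genes, leaving out libraries called 7.41% to 14.8%. In the same comparison, 5 passed with the replicate block (4 lower), against 13% of all genes. With only the 2 groups fitted, 5 passed (2 higher), against 16.4%. Tet2-E against pMXs gave 0 to 0 with libraries left out. Within replicates 1 and 2, where Ereg had been seen high and pMXs replicate 2 stood alone, Ereg was higher by 0.65. Within replicates 100 and 250 it was 0.17 (adjusted p = 0.679). Both subsets were chosen after seeing the data. For Tet2-WT against Tet2-E (1 lower), leaving out libraries gave 0 to 2 changed (0 to 1 higher, 0 to 2 lower), against 2.27% to 6.08% of all genes. That count was 2 with DESeq2's size factors (2 lower), against 4.71%, and 3 with DESeq2 (1 higher, 2 lower), against 5.81%. With the replicate block it was 3 (1 higher, 2 lower), against 6.61%. A term for the number sets 1 and 2 against 100 and 250 gave 5 (1 higher, 4 lower), against 7.2%. Within replicates 1 and 2 the count was 3 (1 higher, 2 lower), against 6.95%. With only the 2 groups fitted it was 0 (0 lower), against 4.64%. Within replicates 100 and 250, where Tet2-WT replicate 250 stood alone, Ereg was 0.84 and Spry1 -0.39. Directions were followed only for genes called in the main fit or in an alternative of the same comparison. Among these, they turned for 3 genes, of which Dusp2 had been called. For Dusp2, pMXs against untreated became 0.11 within replicates 100 and 250, where untreated replicate 100 stood alone. For Dusp5 it became -0.053 without untreated replicate 100 (leaving out 1 library gave -0.053 to 0.28). For Ereg it became 0.001278 with the replicate block and 0.005344 with the set term. Within replicates 1 and 2, where pMXs replicate 2 stood alone, Ereg was 0.12. Within replicates 100 and 250, with untreated replicate 100 alone, Ereg was -0.27. With the replicate block, Fosb (-1.81, adjusted p = 0.0254), Phlda1 (0.48, adjusted p = 0.000803), Etv1 (-0.33, adjusted p = 0.0216) and Dusp5 (0.24, adjusted p = 0.0471) also passed between pMXs and untreated, where the numbers did not pair. The cause was not tested. Depth limits Egr2, Egr3, Dusp2, Areg and Fosl1 at day 5.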
